A study of Homo sapiens with 4 samples.

Results

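NF-kB is a family of transcription factors that control inflammation and cell survival, and the genes described here are its subunits, its inhibitors, the TNF and IL-1 signalling parts that switch it on, and cytokine and other targets. The 43 genes were chosen by symbol, leaving out chemokines, and all 43 were found among the 25343 gene symbols of the deposited tables. RNA-seq was done on 2 human hepatocellular carcinoma lines, Huh7 and PLC/PRF/5, which are long-established cultures of liver tumour cells. In each line, cells carrying a lentiviral short hairpin RNA against SCD1 (shSCD1#13, gene symbol SCD) were compared with cells carrying a non-target control hairpin (NTC). Both arms were stably transduced and selected with puromycin, so the controls carry the vector and the selection too. The 4 groups were thus Huh7 SCD knockdown, Huh7 control, PLC/PRF/5 SCD knockdown and PLC/PRF/5 control, with 1 library in each. A single hairpin was used, and the labels do not mention clones.

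NF-kB dimers are formed by RELA, RELB, REL and the processed products of NFKB1 and NFKB2. In resting cells IkB proteins hold them in the cytoplasm. TNF and IL-1 receptors act through TRAF proteins and the IKK kinase complex to destroy IkB, which is the canonical pathway, whereas lymphotoxin-beta receptor signals also lead to processing of NFKB2, whose product pairs with RELB, the non-canonical pathway. Many components, NFKBIA, TNFAIP3, BIRC3, NFKB2 and RELB among them, are themselves NF-kB targets, which closes feedback loops. In liver, hepatocytes respond to TNF, IL-1 and IL-6 from neighbouring cells, and NF-kB protects them from TNF-induced death.

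Values are in TPM, a level scaled by transcript length and set to the same total in each library, so the sequencing depth is unknown and no counting interval can be given. SCD itself was at 137 TPM in Huh7 knockdown cells, against 1755 TPM in Huh7 control cells, and at 178 TPM in PLC/PRF/5 knockdown cells, against 1111 TPM in PLC/PRF/5 control cells. Of 12 hepatocyte markers, 12 were at 1 TPM or more in both Huh7 libraries and 11 in both PLC/PRF/5 libraries, with TTR the exception. Their summed level was 28228 TPM in Huh7 knockdown and 31049 TPM in Huh7 control cells, where 6 were higher and 6 lower, and 3393 TPM in PLC/PRF/5 knockdown and 5039 TPM in PLC/PRF/5 control cells. Of the 11 considered in PLC/PRF/5, 9 were lower in the knockdown library, 7 of them by at least 1.5-fold (4.02% of all genes), with a median log2 fold change of -0.85. Of 12 myeloid and lymphoid markers, 7 to 10 per library were under 1 TPM. CD68 was at 9.71 TPM in Huh7 knockdown and 8.76 TPM in Huh7 control cells. In PLC/PRF/5 it was at 13.0 TPM in knockdown and 27.0 TPM in control cells. CD3D (9.87 and 9.71 TPM) and FCER1G (2.98 and 7.81 TPM) were also above 1 TPM in Huh7 knockdown and control cells. LYZ, the lysozyme gene, held most of that list's summed level, which was 1035 TPM in Huh7 knockdown and 1803 TPM in Huh7 control cells, and 2615 TPM in PLC/PRF/5 knockdown and 1774 TPM in PLC/PRF/5 control cells; PTPRC, the pan-leukocyte marker, was under 1 TPM in all 4 libraries. Summed endothelial markers were between 1.5 and 3.4 TPM. Summed stellate and fibroblast markers were at 20.0 TPM in Huh7 knockdown and 48.0 TPM in Huh7 control cells, and at 2.84 and 4.31 TPM in the PLC/PRF/5 knockdown and control cells. The part of these shifts in the results below was not tested, and in bulk RNA fewer cells of a type and less RNA per cell cannot be told apart.

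Because several members are themselves NF-kB targets, promoter sequences are shown first. RefSeq promoter windows, from 250 bases before to 50 bases after the annotated start, were found for 37 of the 43 genes. RELB, NFKBIE, IKBKB, CSF1, IER3 and LIF had no window and were not searched. The kB consensus, the 10-base NF-kB recognition motif searched on both strands, was present in 13 of these 37 windows (35.1%) and in 2958 of 27305 windows of the same length (10.8%). A narrower motif, GGG followed by a pair of bases of any kind and then TTTCC, on either strand, was present in 10 of the 37 and in 1.92% of all windows, and each of those 10 also held the kB consensus. The members were listed partly as NF-kB targets, and the windows of all genes were not limited to expressed genes. No test is therefore read from these shares. This is a description of sequence and not of binding. Of the genes with a match, those printed are the 6 whose fold change averaged over Huh7 and PLC/PRF/5 was highest. They are written 5′ to 3′ along the gene's strand, from GRCh38.p14, with the kB consensus matches in capitals.
LTB (chr6:31582472-31582541, minus strand): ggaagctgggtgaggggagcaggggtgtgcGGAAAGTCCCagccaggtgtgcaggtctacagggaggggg
TNFAIP3 (chr6:137867162-137867243, plus strand): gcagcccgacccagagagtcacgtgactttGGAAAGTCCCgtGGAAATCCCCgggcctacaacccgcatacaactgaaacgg
BIRC3 (chr11:102317255-102317388, plus strand): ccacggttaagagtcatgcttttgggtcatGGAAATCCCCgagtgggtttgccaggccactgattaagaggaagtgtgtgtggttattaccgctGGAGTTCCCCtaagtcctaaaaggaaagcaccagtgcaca
NFKBIZ (chr3:101827740-101827806, plus strand): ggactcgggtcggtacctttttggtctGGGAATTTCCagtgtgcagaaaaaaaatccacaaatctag
IL32 (chr16:3065274-3065344, plus strand): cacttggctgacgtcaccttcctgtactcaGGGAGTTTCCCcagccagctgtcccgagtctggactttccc
NFKBIA (chr14:35404791-35404860, minus strand): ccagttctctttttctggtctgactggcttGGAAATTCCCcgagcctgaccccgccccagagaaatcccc

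In TNFAIP3 the pair of matches lay side by side, at positions -67 to -58 and -55 to -46 counted from the annotated start as 0. The matches of BIRC3 began at -199 and -135 and that of NFKBIA at -81. The IL32 window held overlapping matches on both strands from -99 to -89, which is why its capitals run over 11 letters, and LTB had another match downstream of its start, from 38 to 47. NFKB1, REL, TRAF3, MAP3K8, IRAK1, IL6 and BCL3 also held a match, as the map of matches shows. NFKB2 and IRAK2 held none in this window, which says only that these letters are absent there.

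**Figure D1:**
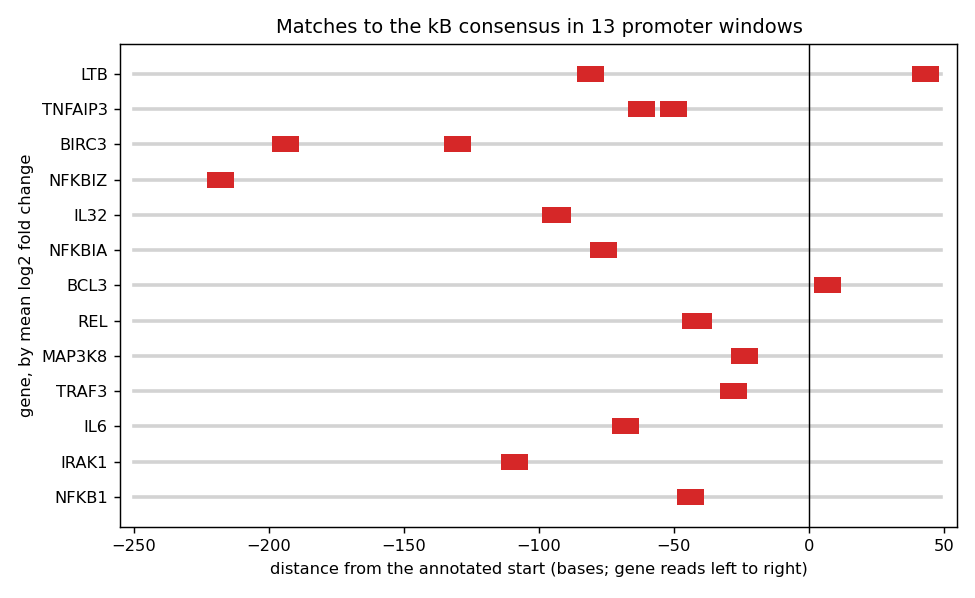
Positions of matches to the kB consensus in the RefSeq promoter windows of the 13 genes that held one. The horizontal axis is the distance in bases from the annotated start (black line), red blocks are matches on either strand, and genes run from the highest mean log2 fold change (LTB, 1.33) at the top to the lowest (NFKB1, -0.18).

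As a whole the NF-kB genes stood higher in Huh7 knockdown cells and close to the background of all genes in PLC/PRF/5 knockdown cells. A gene was considered in a line when it reached 1 TPM in the knockdown or the control library, and log2 fold changes are of knockdown over control with 1 TPM added to both, a scale that understates changes of low genes. In Huh7, 35 members were considered, and 29 were higher and 6 lower in the knockdown library, where 60.2% of all 13485 genes considered were higher and 39.7% lower. Their median log2 fold change was 0.46, beside 0.08 for all genes. Of the 38 considered in PLC/PRF/5, 24 were higher and 14 lower, where 63.4% of 13057 genes were higher and 36.5% lower, and their median was 0.12, beside 0.10 for all genes.

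At least 2-fold higher in Huh7 knockdown cells were 6 members, LTB, IL32, RELB, TNFAIP3, IRAK2 and SOD2, where 3.10% of all genes passed that size, and none was 2-fold lower (1.54% of all genes). With a pseudocount of 5 in place of 1, TNFAIP3 (0.98) and IRAK2 (0.95) fell short of 2-fold, and with 0.1 BIRC3 (1.41) reached it. No member in PLC/PRF/5 reached 2-fold in either direction, where 1.72% of genes did so upward and 1.12% downward. At 1.5-fold, 16 members were higher in Huh7 (9.91% of all genes) and 7 in PLC/PRF/5 (8.13%), with 6 of them in common. Those 6 were LTB, TNFAIP3, BIRC3, IRAK2, NFKB2 and NFKBIZ, where 2.24% of the 12064 genes considered in both lines passed in both. Of these 6 promoter windows, 4 held the kB consensus, as did 9 of the other 31, which describes sequence only. Of the 6, BIRC3 in Huh7 (0.44, from 3.53 and 1.27 TPM) and IRAK2 in PLC/PRF/5 (0.55) fell short of 1.5-fold with a pseudocount of 5. With median-ratio scaling IRAK2 (0.50) and PTGS2 (0.48) in PLC/PRF/5 fell short of 1.5-fold. So did NFKBIA (0.50), NFKBIE (0.51) and BCL3 (0.56) in Huh7. Each of these compares a single pair of libraries, and no replicate stands behind it.

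The sign was shared by both lines for 19 members that were higher (46.5% of all genes) and 4 that were lower (22.4%), out of the 35 considered in each, and 12 went opposite ways (31%). The 4 lower in both were NFKB1, CHUK, TNFRSF1A and IL6R. Of the opposite 12, the knockdown value was the higher one in Huh7 alone for 10 (14.1% of all genes) and in PLC/PRF/5 alone for 2 (16.9%). Scaling by the median of gene-wise ratios between libraries moved the median of all genes by -0.08 in Huh7 and -0.10 in PLC/PRF/5, and left the members at 0.36 and 0.01. With it 15 members were higher in both (33.1% of all genes), 6 lower in both (34.2%) and 14 opposite (32.7%), and NFKBIB, BCL3, IKBKB, TNIP2 and TRAF2 in PLC/PRF/5 and IRAK1 in Huh7 changed sign from values under 0.10. The fold change in Huh7 exceeded that in PLC/PRF/5 for 27 of the 35, against 45.3% of all genes. Across these 35 genes the fold changes of the lines correlated at Pearson's r = 0.49 (Spearman's rho 0.43), and across the 12064 genes at 0.41 (0.45). Genes share the libraries and are not independent replicates.

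**Figure D2:**
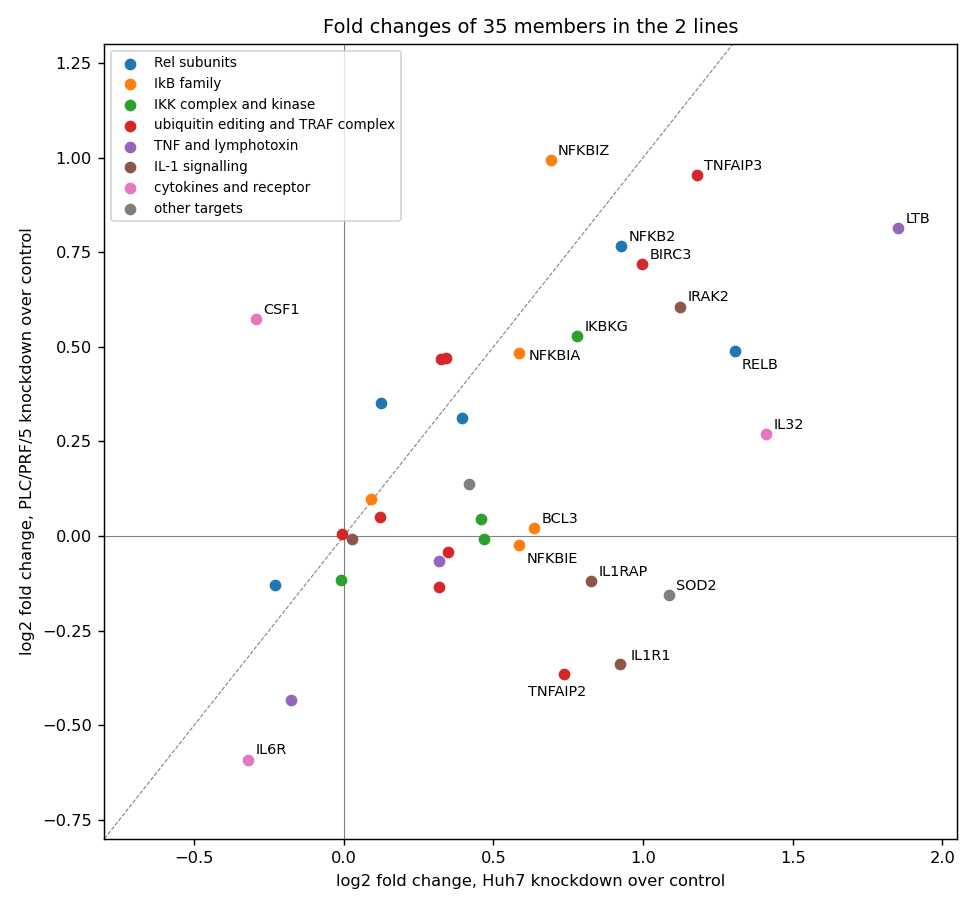
Log2 fold change of knockdown over control (TPM with 1 added) in Huh7 on the horizontal axis and in PLC/PRF/5 on the vertical axis, for the 35 members considered in both lines, coloured by role, 1 library per group. LTB and IL32 lie farthest to the right, SOD2, IL1R1, IL1RAP and TNFAIP2 are right of 0 and below it, and 27 genes lie under the dashed line of equal change.

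The difference common to the 2 lines was tested with limma, with the cell line as a block and adjustment over all 13813 genes of the fit. Its p-values reflect how alike the lines moved. The fit left 1 residual degree of freedom per gene. Each gene's variance was therefore moderated, that is, drawn toward a trend over all genes (median prior degrees of freedom 3.71). The SE printed with a mean uses that moderated variance and does not measure the spread of its 2 line values. Nothing states that libraries came from separate experiments. Of the 37 members in the fit none passed an adjusted p of 0.05 (0 of all genes on the higher side and 0.00724% on the lower side passed), and the lowest adjusted p was 0.129, for NFKB2 and TNFAIP3. SCD, the target of the hairpin, did not pass either (mean log2 fold change -3.15, limma adjusted p = 0.128). A member that did not pass is thus not shown to be unchanged. At an unadjusted p under 0.05, 13 members were higher and 2 lower, where 12.7% and 5.24% of all genes were. With median-ratio scaling the numbers were 12 and 2, where 7.74% and 9.20% of all genes were. The 6 members outside the fit were TNFRSF1B, TNF, IL1A, IL1B, IL6 and LIF.

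Of the subunit genes, those of the non-canonical pair, NFKB2 and RELB, were higher in the knockdown library of both lines, whereas NFKB1 was slightly lower. NFKB2 was at 53.8 TPM in Huh7 knockdown cells, against 27.8 TPM in Huh7 control cells, and at 320 TPM in PLC/PRF/5 knockdown cells, against 188 TPM in PLC/PRF/5 control cells. RELB, its partner, was at 37.6 TPM in Huh7 knockdown and 14.6 TPM in Huh7 control cells, and at 94.4 TPM in PLC/PRF/5 knockdown and 67 TPM in PLC/PRF/5 control cells. For both genes the knockdown value stood above the control value in each line, and both PLC/PRF/5 values stood above both Huh7 values. Log2 fold changes were 0.93 in Huh7 and 0.77 in PLC/PRF/5 for NFKB2 (mean 0.85, SE 0.10, limma adjusted p = 0.129). For RELB they were 1.31 and 0.49 (mean 0.90, SE 0.22, adjusted p = 0.188).

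RELA, the main transactivating subunit of the canonical pathway, was at 72.2 TPM in Huh7 knockdown and 54.7 TPM in Huh7 control cells, and at 108 TPM in PLC/PRF/5 knockdown and 86.6 TPM in PLC/PRF/5 control cells. Its fold changes, 0.39 and 0.31 on the log2 scale, were smaller than those of NFKB2 in each line. NFKB1, the precursor of p50, was at 41.1 TPM in Huh7 knockdown and 48.4 TPM in Huh7 control cells, and at 28.4 TPM in PLC/PRF/5 knockdown and 31.1 TPM in PLC/PRF/5 control cells. REL was at 8.17 TPM in Huh7 knockdown and 7.41 TPM in Huh7 control cells, and at 16.4 TPM in PLC/PRF/5 knockdown and 12.6 TPM in PLC/PRF/5 control cells. REL is uncertain, since 51.9% of the 31-base words of its longest transcript also occur in other genes of GENCODE 29, mostly in one that overlaps it.

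Summed over the 5 genes, subunit transcripts were at 213 TPM in Huh7 knockdown and 153 TPM in Huh7 control cells, and at 566 TPM in PLC/PRF/5 knockdown and 385 TPM in PLC/PRF/5 control cells. NFKB2 and RELB together made up 42.9% of this sum in Huh7 knockdown cells and 27.7% in Huh7 control cells. In PLC/PRF/5 they made up 73.1% in knockdown cells and 66.1% in control cells. The ratio of NFKB2 to NFKB1 TPM was 1.31 in Huh7 knockdown and 0.57 in Huh7 control cells, so that the order of the 2 precursor genes differed between the arms there. In PLC/PRF/5 the ratio was 11.3 in knockdown and 6.02 in control cells.

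**Figure D3:**
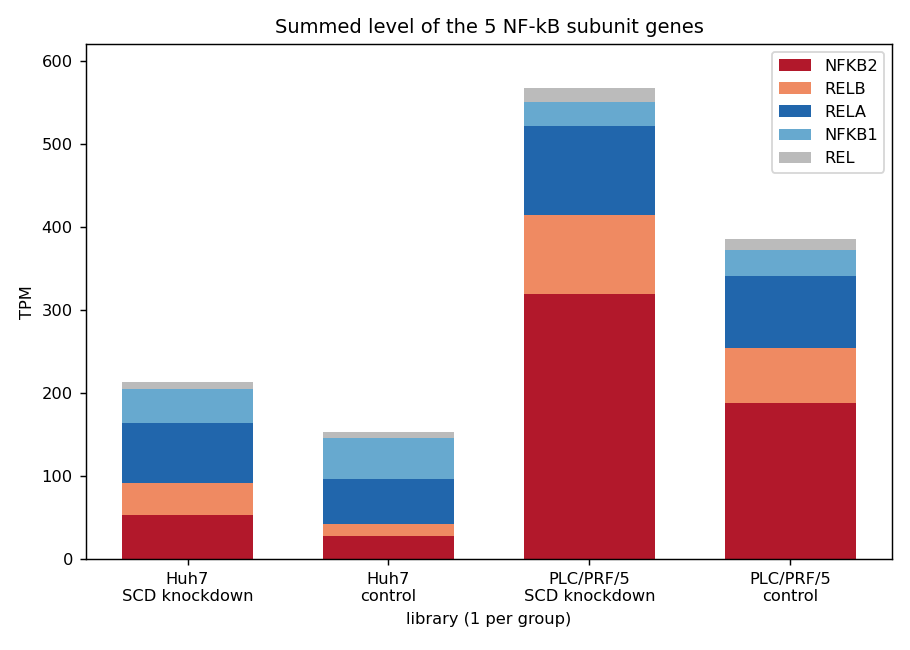
Stacked TPM of the 5 NF-kB subunit genes in each library, 1 library per group, with no error bars for that reason. The sum was 213 TPM in Huh7 knockdown and 153 TPM in Huh7 control cells, and 566 TPM in PLC/PRF/5 knockdown and 385 TPM in PLC/PRF/5 control cells, and the NFKB2 and RELB blocks account for most of the difference.

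Of the IkB family, NFKBIA and NFKBIZ were higher in both lines. NFKBIA encodes IkB-alpha, which is resynthesised after activation and returns NF-kB to the cytoplasm. It was at 154 TPM in Huh7 knockdown and 102 TPM in Huh7 control cells, and at 121 TPM in PLC/PRF/5 knockdown and 86.2 TPM in PLC/PRF/5 control cells. The log2 fold changes were 0.59 and 0.48 (mean 0.53, SE 0.09, adjusted p = 0.15), a like size in both lines. NFKBIZ encodes a nuclear IkB that co-activates secondary response genes such as IL6. It was at 73.1 TPM in Huh7 knockdown and 44.9 TPM in Huh7 control cells, and at 19.4 TPM in PLC/PRF/5 knockdown and 9.26 TPM in PLC/PRF/5 control cells (mean log2 fold change 0.84, SE 0.14, adjusted p = 0.147). Its value of 0.99 in PLC/PRF/5 was the highest of the members there, and above the 0.69 of Huh7.

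The remaining IkB genes differed between the arms in Huh7 or hardly at all. BCL3, a nuclear IkB that binds p50 and p52 dimers, was at 58.9 TPM in Huh7 knockdown and 37.5 TPM in Huh7 control cells, but at 59.1 TPM in PLC/PRF/5 knockdown and 58.3 TPM in PLC/PRF/5 control cells. NFKBIE, the IkB-epsilon gene, was at 14 TPM in Huh7 knockdown and 9 TPM in Huh7 control cells, and at 23.8 TPM in PLC/PRF/5 knockdown and 24.2 TPM in PLC/PRF/5 control cells. NFKBIB, the IkB-beta gene, which is not a feedback target in the way NFKBIA is, was at 43.2 TPM in Huh7 knockdown and 40.5 TPM in Huh7 control cells, and at 69.7 TPM in PLC/PRF/5 knockdown and 65 TPM in PLC/PRF/5 control cells. Its log2 fold changes were 0.09 and 0.10, and 10.2% of its sequence words are shared with other genes. The sum of NFKBIA, NFKBIB and NFKBIE was 211 TPM in Huh7 knockdown and 152 TPM in Huh7 control cells (ratio 1.39), the same ratio as for the summed subunits there. For PLC/PRF/5 the sum was 214 TPM in knockdown and 175 TPM in control cells (ratio 1.22), beside a ratio of 1.47 for the subunits.

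Of the genes for the kinases that release NF-kB, IKBKG was higher in both lines. IKBKG, the regulatory IKK subunit NEMO, was at 26.4 TPM in Huh7 knockdown and 14.95 TPM in Huh7 control cells, and at 35.7 TPM in PLC/PRF/5 knockdown and 24.45 TPM in PLC/PRF/5 control cells (mean log2 fold change 0.65, SE 0.13, adjusted p = 0.177). That value is uncertain, because 46% of the sequence words of IKBKG are shared with other genes, chiefly its pseudogene IKBKGP1. The catalytic subunit genes CHUK (-0.01 in Huh7 and -0.12 in PLC/PRF/5) and IKBKB (0.46 and 0.04) and the kinase gene MAP3K8, which links IKK to ERK signalling (0.47 and -0.01), stayed under 1.5-fold.

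Of the genes for ubiquitin editing and survival, TNFAIP3 and BIRC3 were higher in both lines. TNFAIP3 encodes A20, the deubiquitinase that ends TNF and IL-1 signalling, and was at 29.4 TPM in Huh7 knockdown, against 12.4 TPM in Huh7 control cells, and at 30.1 TPM in PLC/PRF/5 knockdown, against 15.1 TPM in PLC/PRF/5 control cells. Both knockdown values were above both control values (log2 fold changes 1.18 and 0.95, mean 1.07, SE 0.14, adjusted p = 0.129). BIRC3 encodes cIAP2, a ubiquitin ligase of the TNF receptor complex. It was at 3.53 TPM in Huh7 knockdown and 1.27 TPM in Huh7 control cells, and at 83.9 TPM in PLC/PRF/5 knockdown and 50.7 TPM in PLC/PRF/5 control cells (mean 0.86, SE 0.16, adjusted p = 0.159). BIRC2, its paralog and neighbour on chromosome 11, had smaller log2 fold changes of 0.33 and 0.47.

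TNFAIP2, a TNF-induced gene, differed in direction between the lines. It was at 69.6 TPM in Huh7 knockdown and 41.4 TPM in Huh7 control cells, and at 0.60 TPM in PLC/PRF/5 knockdown and 1.06 TPM in PLC/PRF/5 control cells, so the PLC/PRF/5 comparison rests on values near the 1 TPM floor. The A20 partner genes TNIP1 (0.32 and -0.13) and TNIP2 (-0.01 and 0.00), the deubiquitinase gene CYLD (0.34 and 0.47), and the adaptor genes TRAF2 (0.12 and 0.05) and TRAF3 (0.35 and -0.04) stayed under 1.5-fold in both lines. TRAF1, an NF-kB-induced adaptor, was at 0.60 TPM in Huh7 knockdown and 0.34 TPM in Huh7 control cells, and at 1.62 TPM in PLC/PRF/5 knockdown and 1.3 TPM in PLC/PRF/5 control cells.

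Of the TNF and lymphotoxin genes, the ligand gene LTB had the highest mean fold change of all members. LTB encodes lymphotoxin-beta, the membrane partner in the ligand of LTBR. It was at 12.9 TPM in Huh7 knockdown and 2.85 TPM in Huh7 control cells, and at 35.4 TPM in PLC/PRF/5 knockdown and 19.7 TPM in PLC/PRF/5 control cells. The log2 fold changes were 1.85 and 0.81 (mean 1.33, SE 0.28, adjusted p = 0.177), and LTB reached 2-fold in Huh7 but not in PLC/PRF/5. TNF, which lies next to LTB on chromosome 6, was at 0.17 TPM in both Huh7 libraries, and at 1.22 TPM in PLC/PRF/5 knockdown and 0.81 TPM in PLC/PRF/5 control cells. LTBR, the receptor gene, was at 82.9 TPM in Huh7 knockdown and 66.3 TPM in Huh7 control cells, and at 200.1 TPM in PLC/PRF/5 knockdown and 209.7 TPM in PLC/PRF/5 control cells. The TNF receptor genes went the other way or were hardly detected. TNFRSF1A, the death-domain TNF receptor gene, had log2 fold changes of -0.18 and -0.43 (mean -0.30, SE 0.10, adjusted p = 0.249), and TNFRSF1B was between 0.21 and 0.52 TPM in all libraries.

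The IL-1 receptor genes differed in direction between the lines, while the kinase gene IRAK2 was higher in both. IRAK2, which sustains IL-1 and Toll-like receptor signals downstream of MYD88, was at 31.4 TPM in Huh7 knockdown and 13.9 TPM in Huh7 control cells, and at 43.7 TPM in PLC/PRF/5 knockdown and 28.4 TPM in PLC/PRF/5 control cells (mean log2 fold change 0.86, SE 0.17, adjusted p = 0.166). IL1R1, the signalling receptor gene, was at 17.5 TPM in Huh7 knockdown and 8.77 TPM in Huh7 control cells, but at 26.5 TPM in PLC/PRF/5 knockdown and 33.7 TPM in PLC/PRF/5 control cells. IL1RAP, the shared co-receptor gene, was at 62.4 TPM in Huh7 knockdown and 34.7 TPM in Huh7 control cells, and at 9.30 TPM in PLC/PRF/5 knockdown and 10.2 TPM in PLC/PRF/5 control cells, and 10.9% of its sequence words are shared with other genes. Both receptor genes were thus higher in the Huh7 knockdown library (0.92 and 0.83) and lower in that of PLC/PRF/5 (-0.34 and -0.12). IRAK1 had values of 0.03 and -0.01. Among the ligands, IL1A was listed at 0 in all 4 libraries, and IL1B was at 0.19 TPM in Huh7 knockdown and 0.24 TPM in Huh7 control cells and listed at 0 in both PLC/PRF/5 libraries.

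Of the cytokine genes, IL32 was abundant and IL6 and LIF nearly absent. IL32, an inflammatory cytokine gene found in humans but not in mice, was at 220 TPM in Huh7 knockdown and 82.0 TPM in Huh7 control cells, and at 474 TPM in PLC/PRF/5 knockdown and 393 TPM in PLC/PRF/5 control cells. Its log2 fold change of 1.41 in Huh7 was over the 2-fold size and its 0.27 in PLC/PRF/5 was not (mean 0.84, SE 0.27, adjusted p = 0.236). IL6 was at most 0.80 TPM and LIF at most 0.97 TPM in any library. IL6R, the IL-6 receptor gene, was at 10.4 TPM in Huh7 knockdown and 13.2 TPM in Huh7 control cells, and at 33.7 TPM in PLC/PRF/5 knockdown and 51.3 TPM in PLC/PRF/5 control cells. With log2 fold changes of -0.32 and -0.59 it was the 1 member at least 1.5-fold lower in a line, where 4.02% of genes were in PLC/PRF/5 and 4.86% in Huh7. CSF1, the macrophage growth factor gene, had values of -0.29 and 0.57.

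The remaining targets were SOD2, PTGS2 and IER3. SOD2, the mitochondrial superoxide dismutase gene, was at 556 TPM in Huh7 knockdown and 262 TPM in Huh7 control cells, and at 362 TPM in PLC/PRF/5 knockdown and 404 TPM in PLC/PRF/5 control cells. It was thus 2.12-fold higher in Huh7 and slightly lower in PLC/PRF/5, 15.7% of its sequence words are shared with other genes, and 8.67% of its exon bases lie antisense to other genes, whose reads cannot be told apart where the strand setting is not known. PTGS2, the cyclooxygenase-2 gene, was at 0.42 TPM in Huh7 knockdown and 0.18 TPM in Huh7 control cells, and at 72.7 TPM in PLC/PRF/5 knockdown and 48.0 TPM in PLC/PRF/5 control cells. It was therefore considered in PLC/PRF/5 alone, with a log2 fold change of 0.59. IER3, a survival gene induced early after stimulation, had log2 fold changes of 0.42 and 0.14, from levels between 53.5 and 490 TPM over the 4 libraries, and 26.5% of its exon bases lie antisense to IER3-AS1.

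**Figure D4:**
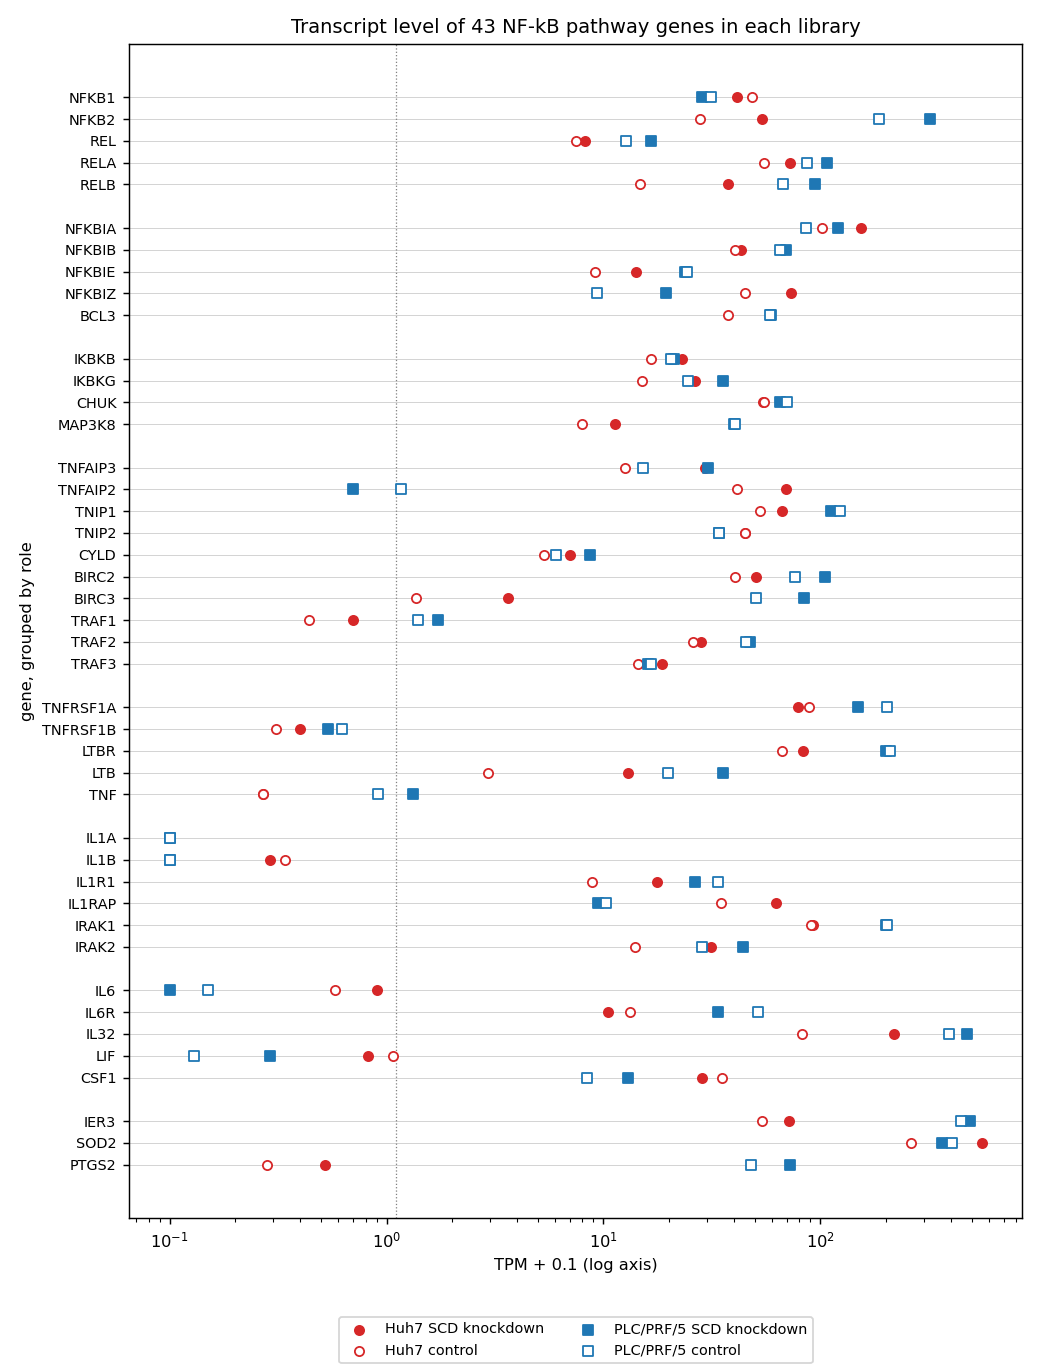
TPM of each of the 43 genes in each of the 4 libraries, with 0.1 added and on a log axis, genes grouped by role from the subunits at the top to other targets at the bottom. Filled symbols are knockdown and open symbols control, circles Huh7 and squares PLC/PRF/5, and the dotted line marks 1 TPM; PTGS2 and TNFAIP2 show the widest gaps between the lines, and 5 genes (TNFRSF1B, IL1A, IL1B, IL6 and LIF) stay left of the dotted line in every library.

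Many members also stood at different levels in the 2 lines. In the cell line term of the same limma fit, with adjustment over all genes, 7 members were higher in Huh7 (28.3% of all genes) and 23 higher in PLC/PRF/5 (31.5%). With no filter on TPM both counts were 0. A low p-value here says that knockdown and control arms gave a like line difference, and nothing of the spread between cultures. PTGS2 and TRAF1 entered the fit through their PLC/PRF/5 levels and TNFAIP2 through its Huh7 levels, so the direction of these 3 was fixed by the filter and no test is read from them, though both counts include them. As a description, the difference of Huh7 minus PLC/PRF/5 was -5.54 for PTGS2 and 4.91 for TNFAIP2 on the log2 scale. Of the members at 1 TPM or more in all libraries, BIRC3 had the widest difference (-4.37, SE 0.16, limma adjusted p = 0.000211). IER3 (-2.89) and NFKB2 (-2.63) were also higher in PLC/PRF/5, and IL1RAP (2.15), NFKBIZ (2.01) and CSF1 (1.52) in Huh7. For TNFAIP3 (-0.15, adjusted p = 0.4) and SOD2 (adjusted p = 0.991) the test of the line difference did not pass. The 6 genes with no line term were those outside the fit.

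Related genes outside the 43 were read from 4 lists. Of 27 genes for adaptors and kinases of the pathway, 24 were considered in both lines, 16 higher in both (46.5% of all genes) and 6 lower in both (22.4%), and the median was 0.23 for Huh7 and 0.20 for PLC/PRF/5, beside 0.08 and 0.10 for all genes. RIPK1, the kinase at the TNF receptor, had log2 fold changes of 0.76 and 0.40, SHARPIN, a subunit of the linear ubiquitin ligase, of 0.56 and 0.43, and IKBKE of 0.82 and 0.07. PELI1, a ubiquitin ligase gene of IRAK signalling, went the other way. It was at 10.7 TPM in Huh7 knockdown and 27.3 TPM in Huh7 control cells, and at 8.09 TPM in PLC/PRF/5 knockdown and 16.8 TPM in PLC/PRF/5 control cells (mean -1.12, adjusted p = 0.13).

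Of 27 TNF superfamily genes, 8 were considered in both lines and 7 were higher in both (46.5% of all genes), the median being 0.52 over the 14 genes considered in Huh7 and 0.29 over the 12 in PLC/PRF/5. TNFRSF21 (0.65 and 0.62), TNFRSF12A, the TWEAK receptor gene (0.72 and 0.49), the decoy receptor gene TNFRSF10D (0.32 and 0.75) and TNFRSF9 (0.57 and 0.72, under 2 TPM throughout) had the largest mean differences among those 8. Of the genes considered in 1 line, named after their values were seen, CD70 was at least 2-fold lower in PLC/PRF/5 (-2.09), TNFSF4 (-1.08) and TNFRSF25 (-1.18) were 2-fold lower in Huh7, and TNFSF11 was 2-fold higher there (1.22). Of 26 IL-1 and IL-6 family genes, 15 were considered in both, 10 higher in both (46.5% of all genes) and 5 opposite (31%), with medians of 0.29 and 0.30. IL18, an IL-1 family cytokine gene, was at 183 TPM in Huh7 knockdown and 37.65 TPM in Huh7 control cells, and at 163 TPM in PLC/PRF/5 knockdown and 89.1 TPM in PLC/PRF/5 control cells. SOCS1, the feedback inhibitor of JAK kinases, had values of -2.01 and 0.37, the IL-6 family cytokine gene CLCF1 of 0.39 and 0.82, and the oncostatin M receptor gene OSMR of 0.97 and 0.12.

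Of 34 other NF-kB targets without chemokines, 22 were considered in both lines, 13 higher in both (46.5% of all genes), 2 lower in both (22.4%) and 7 opposite (31%), with medians of 0.55 and 0.18. EDN1, the endothelin-1 precursor gene, had log2 fold changes of 2.75 and 0.56, BMP2, a bone morphogenetic protein gene, of 1.46 and 0.77, the transcription factor gene KLF6 of 1.28 and 1.58, and the stress gene GADD45A of 0.95 and 0.93. With median-ratio scaling 11, 6, 7 and 12 genes of the 4 lists, in the order given, were higher in both lines (33.1% of all genes). Without it the numbers were 16, 7, 10 and 13. No gene of the 4 lists passed the limma fit over all genes. At an unadjusted p under 0.05, 6 of 26, 6 of 17, 4 of 19 and 7 of 24 genes of the lists in the fit, in the order given, were higher, where 12.7% of all genes were (7.74% with median-ratio scaling). On the lower side there were 1, 0, 0 and 1, where 5.24% of all genes were (9.20% with that scaling).

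**Figure D5:**
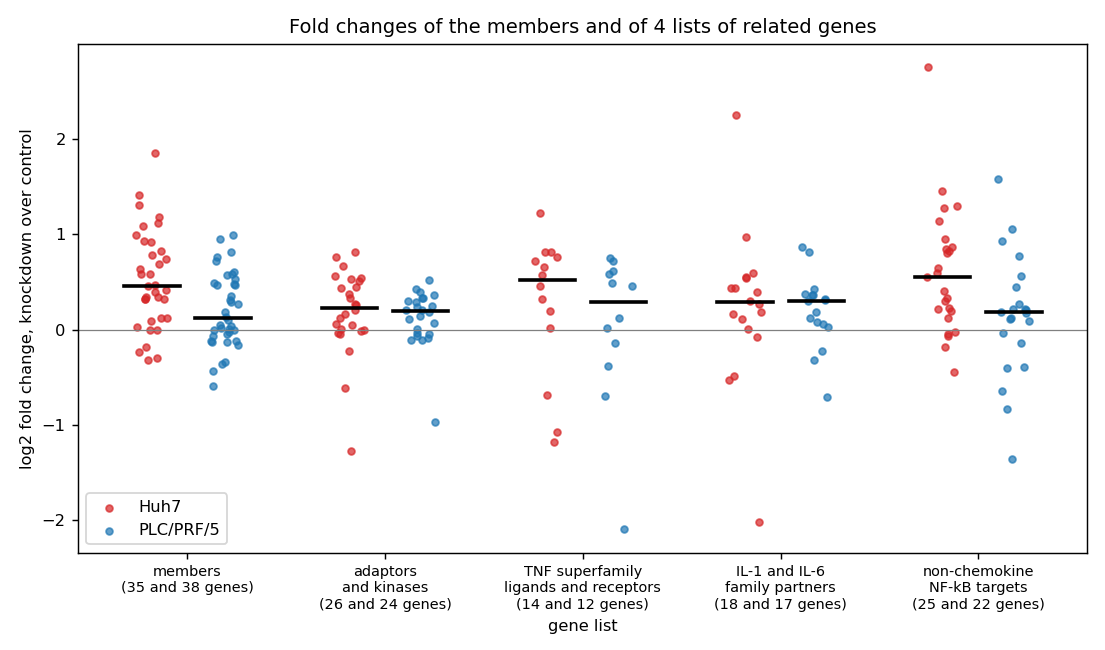
Log2 fold change of knockdown over control in Huh7 (red) and PLC/PRF/5 (blue) for the members and for 4 lists of related genes, each point a gene considered in that line (numbers for Huh7 and PLC/PRF/5 under each list) and black bars the medians. The members' medians are 0.46 and 0.12, and those of the other NF-kB targets 0.55 and 0.18.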

How the data were processed

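The authors deposited gene-level TPM, 1 table per library, per the file headers; cutadapt, RSEM 1.2.21 and hg19 are named in the submitters' processing notes, while for aligner, annotation and strandedness the setting was not given in the sources used here. Reads that similar genes share are divided by a model in RSEM, so such genes are uncertain. TPM carries no depth, so no interval or detection limit was computed.

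From these values, log2 fold changes with a pseudocount of 1 were computed per line (1 library per arm, no test). Genes with at least 1 TPM in 2 libraries entered limma 3.58.1 (R 4.3.3) on log2(TPM + 1), with arm and cell line terms, a variance trend, two-sided tests and Benjamini-Hochberg adjustment over all genes. The lines pair the arms by cell line. Sequence words of 31 bases and exon overlaps came from GENCODE 29, and promoters from RefSeq GRCh38.p14; both differ from the authors' build and were used for sequence only. Python 3.11.15 and matplotlib 3.10.9 were used elsewhere.

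Members and lists were chosen with earlier results of these data known. Values per library are set out for SCD, subunit and IkB genes and members at least 1.5-fold different in a line. Of each other list, the 4 genes with the largest absolute mean change among those considered in both lines are named. Any other gene given by level was chosen after its values were seen. Alternatives were a pseudocount of 0.1 or 5, a minimum of 5 TPM, no minimum, median-ratio scaling, no variance trend, and dropping either term of the fit.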

Additional observations from a re-analysis of the deposited data

Results flagged for a closer look

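For 3 members the knockdown difference had opposite signs in the lines and the lines differed by at least 1 on the log2 scale. With 1 library per group this difference was not tested. The share of all genes meeting both conditions was not computed, so the count is not read as many or few. The fold change in Huh7 minus that in PLC/PRF/5 was 1.26 for IL1R1 (0.92 and -0.34), 1.24 for SOD2 (1.09 and -0.16) and 1.1 for TNFAIP2 (0.74 and -0.36, the second from levels of 0.60 TPM in PLC/PRF/5 knockdown and 1.06 TPM in PLC/PRF/5 control cells).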

How the results depend on the processing

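The number of members at least 2-fold higher in Huh7 was 6, with 4 at a pseudocount of 5, 7 at a pseudocount of 0.1 and 16 at a 1.5-fold size. In PLC/PRF/5 it was 0, but 1 with a pseudocount of 0.1 (NFKBIZ) and 7 at 1.5-fold, with 1 lower at 1.5-fold. The members' median in Huh7 was 0.46, and 0.34 with no filter on TPM. In PLC/PRF/5 it was 0.12, and 0.00737 with median-ratio scaling, which took the median of all genes to -0.000768 in Huh7 and -0.00217 in PLC/PRF/5. Higher in both lines were 15 to 21 members over these settings, and 11 TNF superfamily genes, against 7, with no filter. No member passed the limma fit under any setting tried. Of all genes 1 passed as lower, and 0 with a pseudocount of 5, with no filter, without the variance trend or without the cell line term; 1 passed as higher with a pseudocount of 0.1. At an unadjusted p under 0.05, members higher and lower numbered 13 and 2, but 8 and 0 with no filter and 1 and 0 in the fit without the cell line block, and 1 lower without the variance trend. For these alternatives the share of all genes at that p was not computed, so the counts have no background beside them. For the difference between the lines, 7 members were higher in Huh7 and 23 in PLC/PRF/5, and 0 and 0 with no filter. The cause of these changes was not tested. Leaving out a line leaves no residual degree of freedom, so the values of single lines stand in its place. Depth is unknown, so precision at low TPM cannot be given.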

Other observations

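LTA, TNF and LTB are neighbours on chromosome 6. LTA was listed at 0 in both Huh7 libraries and was at 0.21 TPM in PLC/PRF/5 knockdown and 0.04 TPM in PLC/PRF/5 control cells, so of these genes LTB alone was above 2 TPM in any library. CD70, a TNF superfamily ligand gene named after its values were seen, was at 4.28 TPM in PLC/PRF/5 knockdown and 21.5 TPM in PLC/PRF/5 control cells, while in Huh7 it was at 0.08 TPM in knockdown cells and listed at 0 in control cells. SDC4, the syndecan-4 gene, also named after its values were seen, was at 231 TPM in Huh7 knockdown and 131 TPM in Huh7 control cells, and at 177 TPM in PLC/PRF/5 knockdown and 85.1 TPM in PLC/PRF/5 control cells.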
